A study of Mus musculus with 13 samples.

Results

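The Klf genes encode Krüppel-like factors, transcription factors whose zinc fingers bind CACCC boxes and other GC-rich DNA. Beyond the shared fingers they fall into an activator group, a group that recruits the corepressor CtBP and a group that recruits the corepressor Sin3. In cultured retinal ganglion cells (RGCs), the neurons whose axons form the optic nerve, Klf6 and Klf7 are known to favour neurite growth, and Klf4 and Klf9 to suppress it. The 10 genes described here, Klf2, Klf3, Klf4, Klf5, Klf6, Klf7, Klf9, Klf10, Klf12 and Klf13, were taken as a family by a rule that uses no measured value, although earlier results of these data were known, and were found by gene ID among the 52550 genes of the count table, which held 17 Klf genes that were looked for. Counts of 13 RNA-seq libraries were analysed.

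All libraries came from mouse retinal cells sorted by fluorescence for surface Thy1.2. In the AAV2-Cre (2 libraries) and AAV2-GFP (3 libraries) groups, mice carrying floxed Kdm6a (UTX, an X-linked H3K27 demethylase) received Cre or GFP by intravitreal AAV2 vector, and cells were taken 3 days after optic nerve crush. Both groups are labelled P42, although the study's methods place the crush at an older age. The labels give the first group as UTX knockout and the other only as GFP, which the study calls wild type. The promoter that drives Cre is not given in the sources used here. The uninjured development groups were wild type mice at P1 (3 libraries), P14 (3) and P21 (2), without virus. The study calls the replicates biological, how many animals gave each library is not stated, and p-values measure the spread between these libraries. Injured adults and development differ in dataset, age, virus and injury together, which cannot be told apart, so they were fitted apart and their levels are set side by side without a test.

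Total counts ran from 13637602 to 16070720 in the injured adult libraries and from 30357454 to 38812917 in the development libraries. Levels are given as CPM, counts scaled to library size with TMM factors over all 13 libraries. Kdm6a itself had 110 and 112 CPM in AAV2-Cre, against 115, 96.5 and 119 CPM in AAV2-GFP (log2 fold change -0.02, Benjamini-Hochberg adjusted p = 0.963, edgeR), so the gene counts did not separate the labels, and counts per gene may miss a deletion of part of a gene. In other samples, the study reported lower Kdm6a mRNA by PCR in purified RGCs, and lower Kdm6a staining in RGCs, after Cre. RGC markers took 0.0308% to 0.0374% of counts in AAV2-Cre and 0.0351% to 0.0404% in AAV2-GFP, against 0.96% to 1.05% at P1, and 1 or 2 of the 14 were at 0 in 4 of the 5 adult libraries. Rod markers took 1.37% to 2.92% in AAV2-Cre and 3.08% to 3.66% in AAV2-GFP. In sorted bulk libraries, fewer cells of a type and less RNA per cell cannot be told apart.

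The RefSeq promoter table, on GRCm38.p6, held 8 of the 10 genes, without Klf5 and Klf10. The promoters of Klf2 and Klf4 (the members with the largest log2 fold changes at P14 against P1), Klf7 (the member that fell most from P1) and Klf9 (the member that rose most from P1 to P21) are shown 5′ to 3′ on the strand of the gene, with 250 bases before and 50 bases after the start. Capitals mark each CACCC box, written CACCC or, on the other strand, GGGTG, and each MEF2 site.
Klf2 (chr8:72318812-72319111, plus strand): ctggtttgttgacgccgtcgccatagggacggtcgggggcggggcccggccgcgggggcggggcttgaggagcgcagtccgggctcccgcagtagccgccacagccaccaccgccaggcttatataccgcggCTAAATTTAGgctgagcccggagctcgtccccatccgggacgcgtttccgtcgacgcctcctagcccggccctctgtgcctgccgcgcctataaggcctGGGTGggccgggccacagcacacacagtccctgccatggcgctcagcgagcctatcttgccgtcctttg
Klf4 (chr4:55532426-55532725, minus strand): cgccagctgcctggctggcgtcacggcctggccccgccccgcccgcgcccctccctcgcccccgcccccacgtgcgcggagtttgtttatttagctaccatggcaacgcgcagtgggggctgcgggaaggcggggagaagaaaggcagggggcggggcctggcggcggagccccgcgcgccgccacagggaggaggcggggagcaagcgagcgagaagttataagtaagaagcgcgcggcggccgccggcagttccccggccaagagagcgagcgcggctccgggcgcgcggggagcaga
Klf7 (chr1:64121340-64121639, minus strand): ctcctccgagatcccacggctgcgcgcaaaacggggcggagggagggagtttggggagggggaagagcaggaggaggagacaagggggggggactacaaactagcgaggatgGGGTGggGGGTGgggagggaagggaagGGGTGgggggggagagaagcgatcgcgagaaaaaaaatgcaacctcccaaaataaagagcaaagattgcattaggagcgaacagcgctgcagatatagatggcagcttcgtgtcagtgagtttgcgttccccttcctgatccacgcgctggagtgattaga
Klf9 (chr19:23140976-23141275, plus strand): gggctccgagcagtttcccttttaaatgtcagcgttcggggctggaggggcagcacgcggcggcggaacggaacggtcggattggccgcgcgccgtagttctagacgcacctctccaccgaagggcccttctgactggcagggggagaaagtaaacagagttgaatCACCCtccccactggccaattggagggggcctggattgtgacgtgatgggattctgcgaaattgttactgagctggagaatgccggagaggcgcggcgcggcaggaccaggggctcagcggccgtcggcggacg

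The Klf7 promoter held 3 CACCC boxes, beginning 138, 131 and 111 bases before the start, while Klf2 and Klf9 held 1 each and Klf4 none. Of 32851 promoters of the same length, 57.5% held at least 1 CACCC box on either strand. Klf3 held 5, Klf12 and Klf13 1 each, and Klf6 none. The Klf2 promoter also held a MEF2 site 118 bases before the start, as did 3.19% of all promoters. A GC box (GGGCGG, either strand, which can share bases with a CACCC box) was present 4 times in Klf4, 2 times in Klf2, 1 time in Klf7 and not in Klf9, against 35.7% of all promoters with at least 1. No CArG box, the site of serum response factor, was found in any of the 8 promoters, and 1.63% of all promoters held one. The GC content was 69.3% in Klf2, 74.3% in Klf4, 58.3% in Klf7 and 63.3% in Klf9, beside a median of 52.7% over all promoters. These matches describe letters in a window, and binding was not measured here.

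The summed level of the 10 genes stayed between 361 and 477 CPM in all 13 libraries, while the genes that made up the sum changed with age. It was 399 to 411 CPM at P1, 414 to 433 CPM at P14 and 452 to 477 CPM at P21, and 426 and 465 CPM in AAV2-Cre, against 361 to 450 CPM in AAV2-GFP. Klf7 held 46.7% to 52.2% of the sum at P1, 4.75% to 5.2% at P14 and 1.77% to 3.83% at P21. Klf9 held 2.78% to 6.52% of the sum at P1, 21.7% to 23.7% at P14 and 33.9% to 35.2% at P21. Klf13 held 35.9% and 36.8% at P21, the largest part at that age. In the injured adults Klf6 led with 55.4% and 51.9% in AAV2-Cre, against 40.2% to 49.1% in AAV2-GFP.

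**Figure D1:**
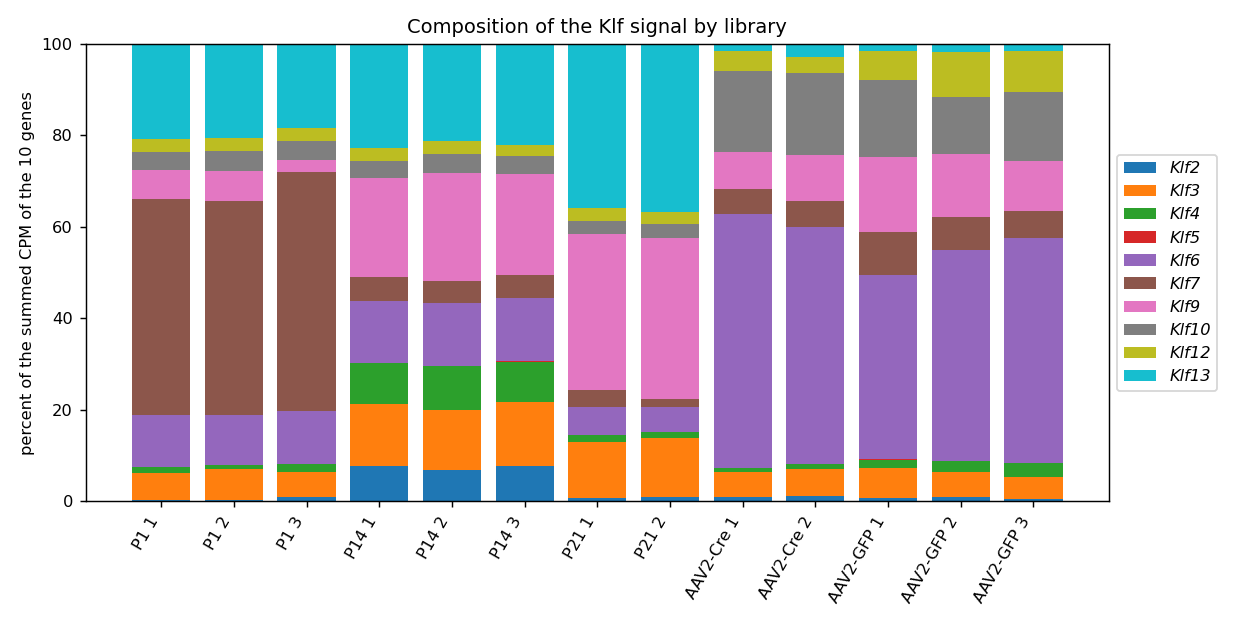
Percent of the summed CPM of the 10 Klf genes held by each gene, as stacked bars for each of the 13 libraries, with the 3 ages in order and then AAV2-Cre and AAV2-GFP. Klf7 fills 46.7% to 52.2% of the bar in the P1 libraries, Klf9 and Klf13 fill most of it at P21, and Klf6 fills 40.2% to 55.4% in the injured adults.

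Per kb of exon, which lets genes be set against each other, the order of the members differed between groups. At P1 the highest was Klf7 at 24.3 ± 1.77 CPM per kb, followed by Klf13 at 10.7 ± 0.585 and Klf6 at 10.4 ± 0.315 CPM per kb (SD, n = 3), which differed by less than their spread. At P14 the order was Klf9 at 19.9 ± 1.09, Klf2 at 17.2 ± 1.17, Klf6 at 13.3 ± 0.279, Klf4 at 12.8 ± 0.722 and Klf13 at 12.4 ± 0.566 CPM per kb (SD, n = 3), of which the last 3 were not separated by their spread. At P21 it was Klf9 at 33.3 ± 0.365, Klf13 at 22.4 ± 0.430 and Klf6 at 6.12 ± 0.780 CPM per kb (SD, n = 2). Klf6 led in both adult groups, at 54.3 ± 0.928 CPM per kb in AAV2-Cre (SD, n = 2) and 40.5 ± 8.82 in AAV2-GFP (SD, n = 3), ahead of Klf10 at 19.0 ± 1.32 in AAV2-Cre and 13.9 ± 2.90 in AAV2-GFP. Klf5 was the lowest member in every group, at no more than 0.0582 CPM per kb.

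Between P1 and P14, 6 of the 10 genes rose, Klf7 fell and Klf5, Klf10 and Klf12 were not called. Over all 20890 genes tested in the fit of the 8 development libraries, 33.6% were higher and 33.6% lower in P14 libraries (edgeR's quasi-likelihood test, Benjamini-Hochberg adjusted p under 0.05). Between P14 and P21, Klf9 and Klf13 rose and Klf2, Klf4 and Klf6 fell, beside 14.6% higher and 19.3% lower of all genes. At P21 against P1, Klf3, Klf9 and Klf13 were higher and Klf6, Klf7 and Klf10 lower, beside 34.1% and 33.6% of all genes. The last comparison shares its libraries with the other pair. The median log2 fold change of the 10 members was 0.25 at P14 against P1, where that of all genes was -0.0143, -0.36 at P21 against P14, where that of all genes was -0.00325, and 0.24 at P21 against P1, where that of all genes was 0.0141.

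**Figure D2:**
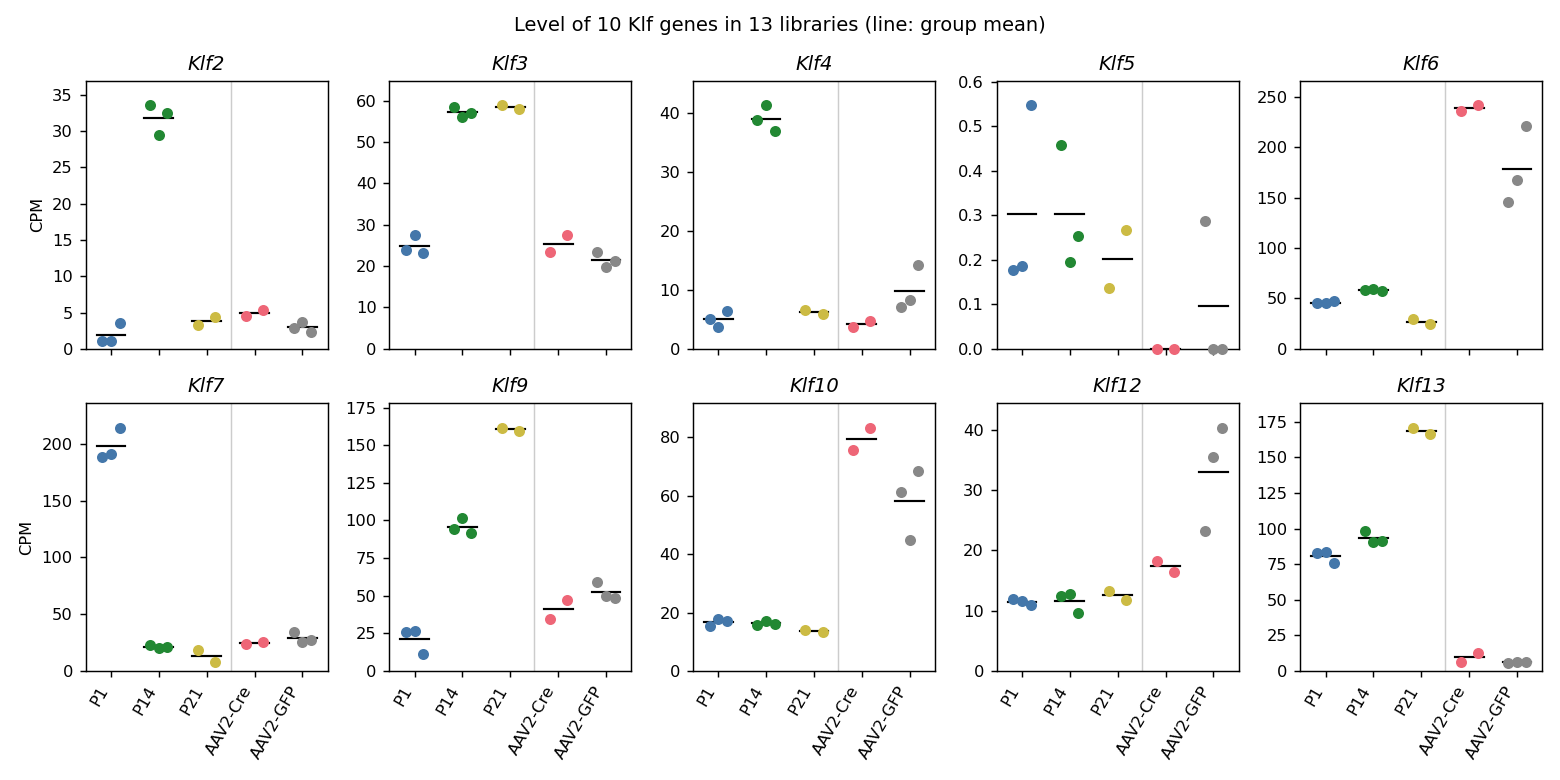
CPM of each of the 10 Klf genes on a linear axis from 0, with 1 point per library and a line at the group mean, for P1, P14, P21, AAV2-Cre and AAV2-GFP. Klf2 and Klf4 stand high only in the P14 libraries (29.4 to 33.6 and 36.9 to 41.3 CPM), Klf7 in the P1 libraries, and Klf6 and Klf10 in the injured adults.

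Klf2, an activator known for its part in endothelial and T cell quiescence, had 1.06, 1.11 and 3.63 CPM at P1, 33.6, 29.4 and 32.6 CPM at P14, and 3.31 and 4.39 CPM at P21. The P14 libraries were thus above every other library of the series, and P1 and P21 overlapped. The log2 fold change was 4.0 at P14 against P1 (SE 0.355, adjusted p = 4.61e-06) and -2.99 at P21 against P14 (SE 0.383, adjusted p = 0.000356, edgeR, Benjamini-Hochberg). At P21 against P1 it was 1.01 (adjusted p = 0.0561), which without P1 replicate 3, the highest P1 library, became 1.84 (adjusted p = 6.58e-06, with 6.58e-06 to 0.23 over all alternatives, edgeR, Benjamini-Hochberg).

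Klf4, an activator or repressor by context that is known as a pluripotency factor and a suppressor of axon growth, followed the same course. It had 5.06, 3.73 and 6.44 CPM at P1, 38.8, 41.3 and 36.9 CPM at P14, and 6.62 and 5.91 CPM at P21. The P14 libraries again stood above all others, and P21 lay within the range of P1 or just over it. The log2 fold change was 2.91 at P14 against P1 (SE 0.157, adjusted p = 1.46e-07) and -2.58 at P21 against P14 (SE 0.18, adjusted p = 1.51e-05), while P21 against P1 gave 0.33 (95% interval -0.08 to 0.74, adjusted p = 0.14, edgeR, Benjamini-Hochberg). Leaving out P1 replicate 3 made the last 0.53 (adjusted p = 0.00875, with 0.00875 to 0.445 over all alternatives, edgeR). The ratio of Klf2 to Klf4 counts was 0.209, 0.298 and 0.562 at P1, 0.865, 0.712 and 0.882 at P14, and 0.5 and 0.744 at P21. In the injured adults it was 1.19 and 1.11 in AAV2-Cre, against 0.408, 0.456 and 0.165 in AAV2-GFP.

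Other genes peaked at P14 with Klf2 and Klf4. Of all genes, 33.6% were higher at P14 than at P1, and 19.3% were lower at P21 than at P14. Pericyte and smooth muscle markers took 0.0113% to 0.0367% of counts at P1, 0.438% to 0.489% at P14 and 0.0642% to 0.0966% at P21, and all 9 of them were higher at P14 than at P1 and lower at P21 than at P14. Immediate early genes, which cells transcribe within minutes of a stimulus or of handling, took 0.103% to 0.117% at P1, 0.67% to 0.675% at P14 and 0.315% to 0.33% at P21, with 17 of 18 higher at P14 than at P1 and 16 of 18 lower at P21 than at P14. Endothelial markers took 0.0142% to 0.0279% at P1, 0.148% to 0.157% at P14 and 0.182% to 0.184% at P21. All 11 of them were higher at P14 than at P1, and 7 of the 11 were lower at P21 than at P14 and none higher (median log2 fold change -1.5), while the summed share at P21 was carried by Kdr, at 1011 CPM on average at P21 and 895 CPM at P14, and Flt1, at 651 CPM at P21 and 302 CPM at P14. Microglia and macrophage markers took at most 0.00478% at P1, 0.038% to 0.0397% at P14 and 0.0102% to 0.0121% at P21, with all 12 higher at P14 than at P1 and lower at P21 than at P14. Rod markers took 0.0148% to 0.0154% at P1, 0.114% to 0.132% at P14 and 0.0717% to 0.0733% at P21, with 13 of 13 higher at P14 than at P1 and 10 lower and 1 higher at P21 than at P14. Amacrine cell markers took 0.00854% to 0.0105% at P1, 0.0333% to 0.0357% at P14 and 0.0119% to 0.014% at P21, and of the 7, P14 had 5 called higher and 1 lower than P1, and P21 had 1 called higher and 5 lower than P14. The part of these shares in the course of Klf2 and Klf4 was not tested. In the injured adults the pericyte share was 0.00309% to 0.0102%, and Klf4 stayed at or under 14.2 CPM. Immediate early genes took 0.594% to 0.617% in AAV2-Cre and 0.417% to 0.583% in AAV2-GFP. Injured adults and development differ in dataset, age, virus and injury together. The part of these shares in the adult Klf4 level was not tested.

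Klf6, an activator that favours axon growth and is induced by injury in many tissues, had 45.1, 44.9 and 47.4 CPM at P1, 58.7, 59.6 and 57.2 CPM at P14, and 29.3 and 24.5 CPM at P21. No 2 ages overlapped. The rise at P14 against P1 was small (log2 fold change 0.32, SE 0.0638, adjusted p = 0.00134), and the level was lower at P21 than at P14 (-1.07, SE 0.0746, adjusted p = 1.53e-05) and than at P1 (-0.74, SE 0.0742, adjusted p = 1.07e-05, edgeR, Benjamini-Hochberg). The injured adult libraries held 146 to 241 CPM, each above every development library. They differ from development in dataset, age, virus and injury together, which cannot be told apart.

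Klf7, the activator most tied to axon growth in the developing nervous system, had 188, 191 and 214 CPM at P1, 22.5, 20.4 and 21.3 CPM at P14, and 18.3 and 7.99 CPM at P21. Every P1 library was far above every later one. The log2 fold change was -3.24 at P14 against P1 (SE 0.215, adjusted p = 5.8e-07) and -3.89 at P21 against P1 (SE 0.266, adjusted p = 7.42e-07, edgeR, Benjamini-Hochberg). At P21 against P14 it was -0.65 (SE 0.245, adjusted p = 0.0683), which became -1.36 without P21 replicate 1 (adjusted p = 3.08e-05), -0.20 without P21 replicate 2 (adjusted p = 0.177) and -0.65 without P1 replicate 3 (adjusted p = 0.0331, with 3.08e-05 to 0.177 over all alternatives, edgeR). RGC markers took 0.96% to 1.05% of counts at P1, 0.132% to 0.152% at P14, and 0.0793% and 0.0385% at P21, with the lower value in P21 replicate 2, the library with the lower Klf7. The part of the RGC share in the fall of Klf7 was not tested. Klf7 shares exonic bases with 2 genes on the opposite strand, Gm26649 (2815 bp), with no count in any library, and Gm13748 (4 bp), with at most 0.345 CPM, and the sources used here do not state whether counting used strand.

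Klf5, an activator of proliferating epithelia, was barely detected, with 6, 6 and 19 counts at P1, 17, 6 and 10 at P14, and 5 and 9 at P21, which is at most 0.547 CPM. At this depth a change could not be told (log2 fold change at P14 against P1 -0.02, 95% interval -1.47 to 1.42, adjusted p = 0.977, edgeR).

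**Figure D3:**
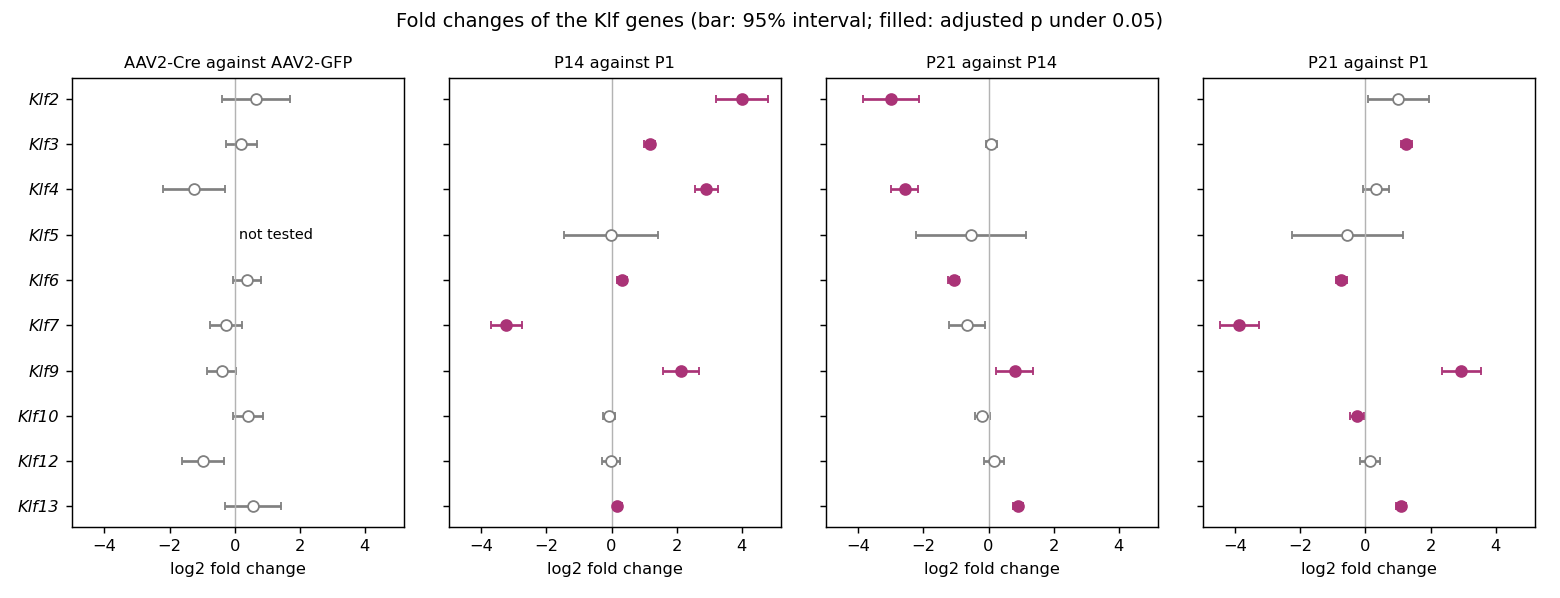
Log2 fold change of each Klf gene in the 4 comparisons, with bars for the 95% interval from edgeR and filled points where the adjusted p is under 0.05. Klf2 and Klf4 sit near 4.0 and 2.91 for P14 against P1 and near -2.99 and -2.58 for P21 against P14, and no point is filled for AAV2-Cre against AAV2-GFP.

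In the CtBP group, Klf3, a repressor known from blood and fat cells, had 24.0, 27.5 and 23.3 CPM at P1, 58.6, 56.1 and 57.1 CPM at P14, and 58.9 and 58.0 CPM at P21. It rose at P14 against P1 (log2 fold change 1.17, SE 0.0721, adjusted p = 3.48e-07) and then kept its level within a 95% interval of -0.09 to 0.26 (edgeR, Benjamini-Hochberg). Klf3 shares up to 404 exonic bases with Gm20033 on the opposite strand, which lay at 9.40 to 15.5 CPM in the development libraries. Klf12, a repressor of AP-2alpha, was at 11.9, 11.6 and 11 CPM at P1, 12.3, 12.7 and 9.58 CPM at P14, and 13.2 and 11.8 CPM at P21, and the ages overlapped. Its log2 fold change at P14 against P1 was -0.02 (95% interval -0.30 to 0.25, adjusted p = 0.875, edgeR), and its sign turned without scaling beyond library size.

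In the Sin3 group, Klf9, a target of glucocorticoid and thyroid hormone receptors, had 25.7, 26.6 and 11.4 CPM at P1, 94.1, 102 and 91.4 CPM at P14, and 162 and 159 CPM at P21. The 3 ages did not overlap, and P1 replicate 3 was far below the other P1 libraries. Klf9 rose at P14 against P1 (log2 fold change 2.14, SE 0.25, adjusted p = 3.45e-05) and at P21 against P1 (2.94, SE 0.269, adjusted p = 5.61e-06). The step of 0.80 at P21 against P14 (SE 0.256, adjusted p = 0.0373) had an adjusted p of 4.3e-07 without P1 replicate 3, which enters the shared spread, and of 0.0843 to 0.112 when any P14 or P21 library was left out (edgeR, Benjamini-Hochberg). DESeq2 gave it an adjusted p of 0.0815, and it passed the threshold in 8 of 16 alternatives that kept the fold limit off.

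Klf13, a factor of T cells and heart, had 82.8, 83.9 and 75.8 CPM at P1, 98.6, 90.8 and 91.6 CPM at P14, and 171 and 166 CPM at P21. It rose at P14 against P1 (log2 fold change 0.18, SE 0.0596, adjusted p = 0.021) and at P21 against P14 (0.90, SE 0.0653, adjusted p = 1.74e-05, edgeR, Benjamini-Hochberg). The first, smaller step had an adjusted p of 0.0538 without P1 replicate 3, 0.0865 without P14 replicate 1 and 0.0518 without P21 replicate 1 (range 0.000856 to 0.309 over all alternatives). Klf10, induced by TGF-beta, kept 15.3, 17.9 and 17.1 CPM at P1, 15.6, 17.1 and 16.2 CPM at P14, and 14.1 and 13.4 CPM at P21. Its decrease at P21 against P1 was small (log2 fold change -0.26, adjusted p = 0.0385) and passed the threshold in 6 of 16 alternatives that kept the fold limit off (edgeR, Benjamini-Hochberg).

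Müller glia markers took 0.219% to 0.584% of counts at P1, 2.15% to 2.27% at P14 and 3.94% to 4.16% at P21, in the same order as Klf9. Other lists had this order too. Endothelial markers took 0.0142% to 0.0279% at P1, 0.148% to 0.157% at P14 and 0.182% to 0.184% at P21. Genes induced by glucocorticoids took 0.0276% to 0.0327% at P1, 0.0546% to 0.0554% at P14 and 0.073% to 0.0772% at P21. Of the 8, P14 had 6 called higher and 2 lower than P1, beside 33.6% of all genes either way. Fkbp5 had 78.25, 17.53 and 148.5 CPM on average at P1, P14 and P21, and Zbtb16 16.59, 6.975 and 69.05 CPM. Both were thus lowest at P14, unlike Klf9. The P1 library with the lowest Klf9, replicate 3, also had the lowest Müller glia share, 0.219% against 0.545% and 0.584% in the other P1 libraries, and the highest pericyte share, 0.0367% against 0.0113% and 0.0168%. Klf15, a glucocorticoid-induced family member outside the 10, had 1.21 CPM in that library, against 9.53 and 11.1 CPM in the other P1 libraries. Among the P1 libraries, the summed endothelial share (0.0142%) and the share of genes induced by glucocorticoids (0.0276%) were also lowest in replicate 3. Kdr had 100.7 CPM there, against 158.6 and 165.7 CPM in the other P1 libraries. Flt1 had 23.07 CPM, against 77.76 and 94.97 CPM, and Esam was also lowest there. Other endothelial markers went the other way. Tie1 had 6.04 CPM in replicate 3, against 1.15 and 1.60 CPM, and Cldn5, Egfl7 and Emcn were also highest there. Pecam1, Cdh5, Tek and Ly6c1 lay between the other P1 libraries. The part of these shares in the rise of Klf9 was not tested.

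**Figure D4:**
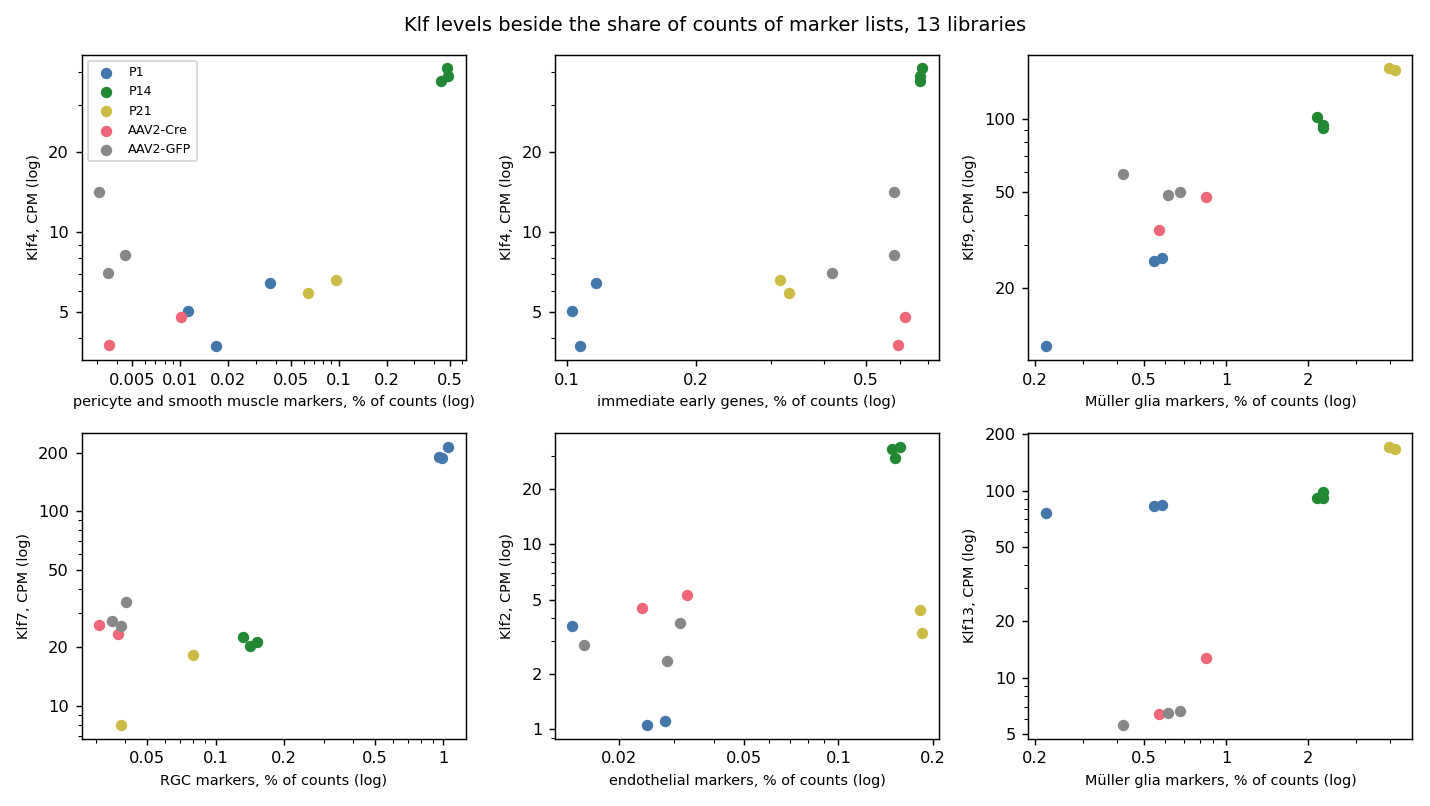
CPM of Klf4, Klf9, Klf7, Klf2 and Klf13 in each of the 13 libraries against the percent of counts taken by a marker list in the same library, both on log axes, with colours for the 5 groups. Klf7 and the RGC markers are both highest in the P1 libraries, Klf9 and the Müller glia markers are both lowest in P1 replicate 3, and Klf2 and the endothelial markers are both higher at P14 than at P1. At P21 the endothelial share is 0.182% to 0.184%, although 7 of its 11 genes were lower than at P14.

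Klf7 and Klf9, an axon growth promoter and a suppressor in cultured RGCs, changed order in CPM between P1 and P14 in these bulk libraries. The shares of RGC and Müller glia markers changed over the same ages, as given above. Their part in the ratio was not tested. The ratio of Klf7 to Klf9 in CPM was 7.32, 7.17 and 18.8 at P1, 0.240, 0.201 and 0.233 at P14, and 0.113 and 0.0501 at P21. In the injured adults it was 0.677 and 0.549 in AAV2-Cre, against 0.577, 0.518 and 0.560 in AAV2-GFP, so these groups overlapped. The ratio of Klf6 to Klf4 was 8.91, 12 and 7.36 at P1, 1.51, 1.44 and 1.55 at P14, and 4.43 and 4.14 at P21.

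The other comparison, labelled as Kdm6a knockout after optic nerve crush, was made in Thy1.2-sorted cells with the low RGC marker shares and the Kdm6a levels given above, and none of the 10 genes passed the test at AAV2-Cre against AAV2-GFP. Klf5 had too few counts to be tested (0 and 0 in AAV2-Cre, against 4, 0 and 0 in AAV2-GFP). Of all 18395 genes tested, 1.33% were higher and 0.294% lower (edgeR, Benjamini-Hochberg adjusted p under 0.05). At an unadjusted p under 0.05, 2 members, Klf4 and Klf12, were lower in AAV2-Cre, beside 7.9% of all genes lower and 8.57% higher. DESeq2 called 1 (Klf12, lower), beside 2.82% of all genes lower and 4.22% higher, and limma-voom called 0. The 2 groups did not overlap in 6 of the 9 genes tested, with Klf2, Klf6 and Klf10 above and Klf4, Klf9 and Klf12 below. Over all genes tested, 19.5% lay above and 15.6% below without overlap.

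Klf4 had 3.78 and 4.79 CPM in AAV2-Cre, against 7.04, 8.22 and 14.2 CPM in AAV2-GFP. The counts behind these values were 52 and 75 in AAV2-Cre, against 98, 136 and 236 in AAV2-GFP. The groups were apart, and the AAV2-GFP libraries spread widely. The log2 fold change was -1.24 (SE 0.419, 95% interval -2.19 to -0.28, unadjusted p = 0.0167, adjusted p = 0.186, edgeR, Benjamini-Hochberg). With all 13 libraries in 1 fit, which takes the spread of the development libraries as well, its adjusted p was 0.0298, and over all 13 alternatives it ran from 0.0298 to 0.619 with the log2 fold change between -1.44 and -0.85.

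Klf12 had 18.3 and 16.4 CPM in AAV2-Cre, against 23.1, 35.5 and 40.3 CPM in AAV2-GFP. The log2 fold change was -0.97 (SE 0.282, 95% interval -1.61 to -0.33, unadjusted p = 0.00766, adjusted p = 0.133, edgeR, Benjamini-Hochberg). Its adjusted p was under 0.05 in 3 of 13 alternatives, from 0.0108 without a low-count filter to 0.505.

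Klf6 had 236 and 241 CPM in AAV2-Cre, against 146, 167 and 221 CPM in AAV2-GFP (log2 fold change 0.38, 95% interval -0.06 to 0.82, adjusted p = 0.374, edgeR). Klf10 had 75.5 and 83.3 CPM in AAV2-Cre, against 61.3, 44.7 and 68.3 CPM in AAV2-GFP (log2 fold change 0.41, 95% interval -0.04 to 0.86, adjusted p = 0.345, edgeR). Both intervals include no change and also a rise of close to 0.82 or 0.86 on the log2 scale. Klf9 had 34.6 and 47.3 CPM in AAV2-Cre, against 59.3, 49.6 and 48.5 CPM in AAV2-GFP (log2 fold change -0.39, 95% interval -0.85 to 0.06, adjusted p = 0.369, edgeR).

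Klf2 had 4.50 and 5.31 CPM in AAV2-Cre, against 2.87, 3.75 and 2.35 CPM in AAV2-GFP (log2 fold change 0.67, SE 0.458, adjusted p = 0.527, edgeR). Klf7 had 23.5 and 26 CPM in AAV2-Cre, against 34.2, 25.7 and 27.2 CPM in AAV2-GFP (log2 fold change -0.27, SE 0.212, adjusted p = 0.592, edgeR). For Klf3, which ran from 23.3 to 27.6 CPM in AAV2-Cre and from 19.7 to 23.3 CPM in AAV2-GFP, and for Klf13, with 6.39 and 12.7 CPM in AAV2-Cre against 5.60 to 6.65 CPM in AAV2-GFP, the groups overlapped, as they did for Klf7. The spread in this dataset was wide, with a biological coefficient of variation of 0.34, against 0.109 in development.

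The ratio of Klf6 to Klf4, a growth promoter over a suppressor, was 62.4 and 50.3 in AAV2-Cre, against 20.7, 20.3 and 15.6 in AAV2-GFP. It combines the differences in both genes given above and was chosen after their values were known, so it was not tested. Markers of other cells differed between the same libraries. B cell markers took 0.049% and 0.108% of counts in AAV2-Cre, against 0.0165% to 0.0418% in AAV2-GFP, T and NK cell markers 0.0582% and 0.0946% in AAV2-Cre, against 0.0279% to 0.0504%, and rod markers 1.37% and 2.92% in AAV2-Cre, against 3.08% to 3.66%. Their part in the Klf levels was not tested.

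Set beside development, the injured adults had the highest levels of Klf6, Klf10 and Klf12 of the series and the lowest of Klf13. Microglia and macrophage markers took 0.816% to 1.03% of counts in AAV2-Cre and 0.623% to 0.965% in AAV2-GFP, against at most 0.0397% in development, and the rod marker share was at least 1.37% in the adult libraries and at most 0.132% in development. Their part in these levels was not tested. Klf10 stood at 44.7 to 83.3 CPM in the 5 adult libraries and at 13.4 to 17.9 CPM in the 8 development libraries. Klf12 stood at 16.4 to 40.3 CPM in the adult libraries and at 9.58 to 13.2 CPM in development. Klf13 stood at 5.60 to 12.7 CPM in the adult libraries and at 75.8 to 171 CPM in development.

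The datasets also differed over all genes by base composition. Among 13350 genes with a mean of at least 5 CPM, the median log2 difference of injured adults minus development was 0.48 in the quintile of genes with the lowest GC content of the transcripts and -1.21 in that with the highest. Klf13 (55.7% GC), Klf4 (57.7%) and Klf2 (61.6%) lay in the quintile with the highest GC content, with log2 differences of -3.74, -1.20 and -1.73. Klf13 lay at the lower edge of that quintile (percentile 80.1), and the median of the fourth quintile was -0.56. Klf6 (45.0% GC), Klf12 (48.0%), Klf7 (46.9%) and Klf9 (48.2%) lay in the second quintile, where the median was 0.06, with differences of 2.13, 1.15, -1.63 and -0.80. Klf10 (49.0%) at 2.04 and Klf3 (48.9%) at -0.96 lay in the third, where it was -0.26. Level differences between the datasets thus moved with GC content over all genes, and its part in each Klf gene was not tested.

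**Figure D5:**
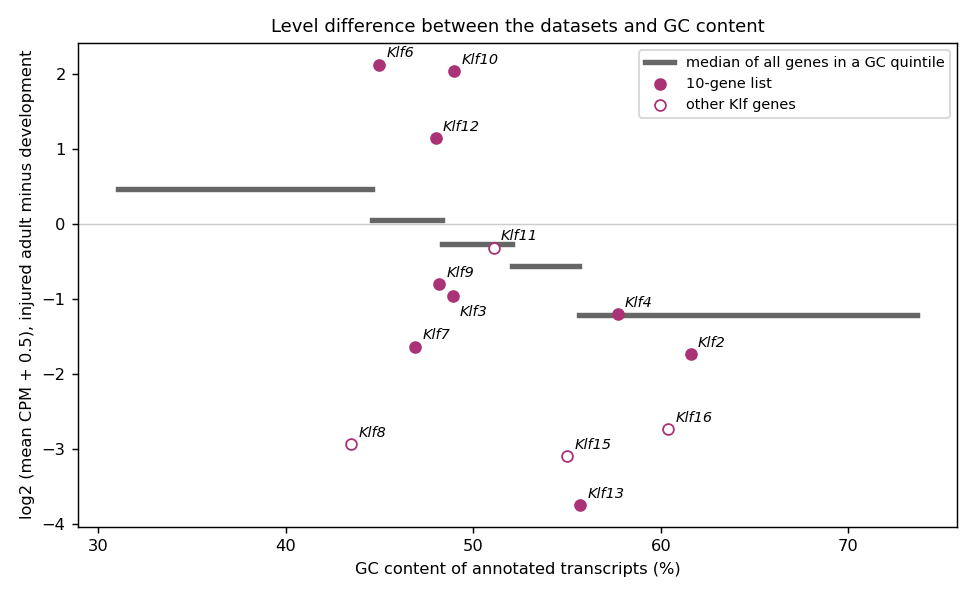
Log2 difference of mean CPM (plus 0.5) between the injured adult and the development libraries against the GC content of the annotated transcripts, with points for Klf genes and grey bars for the median of all genes in each quintile of GC content. The bars descend from 0.48 to -1.21, Klf6 and Klf10 lie above 2, and Klf13 lies at -3.74.

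Of the 7 other Klf genes looked for, 5 passed the filter on low counts in development, and Klf14 and Klf17 had at most 5 counts in a library. Klf8, a CtBP-recruiting repressor, had 34.0 ± 1.77 CPM at P1, 3.49 ± 0.172 CPM at P14 (SD, n = 3 each) and 1.94 ± 0.189 CPM at P21 (SD, n = 2), and fell at P14 against P1 (log2 fold change -3.31, adjusted p = 6.37e-09) and at P21 against P14 (-0.79, adjusted p = 0.00132, edgeR, Benjamini-Hochberg). Klf8 and Klf7 had the most negative log2 fold changes of the Klf genes tested at P14 against P1. Klf15 rose at both steps, by 1.87 and 1.46 on the log2 scale (adjusted p = 0.00656 and 0.0404), while Klf11 (-0.99) and Klf16 (-0.61), which recruit Sin3, fell at P14 against P1. At AAV2-Cre against AAV2-GFP, none of the 4 that were tested was called, with log2 fold changes from 0.10 to 0.66 and adjusted p from 0.64 upwards (edgeR, Benjamini-Hochberg).

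The Sp factors bind the same kind of GC-rich DNA. Of 6 tested of 9, 5 were higher at P14 than at P1 and Sp4 was lower, beside 33.6% higher and 33.6% lower of all genes. The log2 fold changes were 0.38 for Sp1, 0.44 for Sp2, 0.35 for Sp3 and -0.41 for Sp4. At P21 against P14, beside 14.6% higher and 19.3% lower of all genes, Sp7 was the 1 called (0.80). It had 8.81 CPM on average at P21 and 5.27 CPM at P14. No Sp factor was called at AAV2-Cre against AAV2-GFP.

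Among 13 cofactors of Klf proteins, P14 had 8 higher and 5 lower than P1, beside 33.6% higher and 33.6% lower of all genes. The CtBP genes parted, with Ctbp2 at 1.34 and Ctbp1 at -0.48 on the log2 scale, and so did the deacetylase genes, with Hdac1 at 0.73 and Hdac2 at -0.78. The Sin3 scaffold genes moved little, with Sin3a at 0.16 and Sin3b at -0.24. Of 12 tested at AAV2-Cre against AAV2-GFP, none was called, and Wwp1, a ubiquitin ligase of Klf proteins, had the smallest adjusted p (0.0675, log2 fold change -0.86, edgeR, Benjamini-Hochberg).

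Of 16 genes known to act upstream of Klf genes, P14 had 11 higher and 3 lower than P1, and P21 had 1 higher and 7 lower than P14. Of all genes, 33.6% were higher and 33.6% lower at the first step, and 14.6% higher and 19.3% lower at the second. Of the receptors that induce Klf9, Nr3c1, the glucocorticoid receptor (2.70), Nr3c2 (2.23) and Thrb (0.79) rose at P14, while Thra fell by 1.41 on the log2 scale. Thra, at 987 CPM on average at P1 and 379 CPM at P14, was far above Thrb, at 14.9 and 26.4 CPM. Mef2c, which activates Klf2 downstream of the kinase Erk5, had 33.9 CPM on average at P14, against 4.76 CPM at P1, and its log2 fold change was 2.80 at P14 against P1 and -2.42 at P21 against P14 (adjusted p = 3.18e-08 and 6.3e-06, edgeR, Benjamini-Hochberg). Others of this list took other courses. The Erk5 gene Mapk7 had 89.94, 49.22 and 38.95 CPM on average at P1, P14 and P21. At these ages Mef2a had 115.6, 107 and 67.76 CPM, and Mef2d 158.8, 261 and 270.9 CPM. In the injured adults, where Klf2 had 2.35 to 5.31 CPM, Mef2c stood at 149 to 284 CPM, its highest levels of the series. Injured adults and development also differ in dataset, age, virus, injury and cell markers. The part of Mef2c in the Klf2 level was not tested. Tgfb1, which encodes a ligand that induces Klf10, was called higher at P14 than at P1 (3.59) and lower at P21 than at P14 (-2.47), while Klf10 was called at neither step. Tgfb1 had 1.28, 15.8 and 2.75 CPM on average at P1, P14 and P21. Tgfb2, of the same list, had 56.9, 451 and 380 CPM. The part of these genes in the Klf10 level was not tested.

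Of 10 genes known as targets of Klf proteins, P14 had 7 higher and 3 lower than P1, beside 33.6% higher and 33.6% lower of all genes. S1pr1, a Klf2 target in T cells and endothelium, rose by 2.33 on the log2 scale at P14, and Cdkn1a, a Klf4 target, fell by 2.72. At P21, where Klf2 was low, S1pr1 had 211 CPM on average, against 115 CPM at P14 (log2 fold change 0.93, adjusted p = 0.0789, edgeR, Benjamini-Hochberg). L1cam, a target of Klf7 in neurons, fell by 3.73 on the log2 scale. The part of Klf genes in the levels of these targets was not tested. Of 8 genes induced by glucocorticoids, as Klf9 and Klf15 are, P14 had 6 higher and 2 lower than P1, and P21 had 3 higher and 2 lower than P14. The shares of all genes at P21 against P14 were 14.6% higher and 19.3% lower. Mt2 (2.04) was among those higher and Sgk1 (-1.58) among those lower at P21.

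Genes with the course most like that of a member were sought among 11384 genes, by the root mean square difference of log2 CPM, each centred on its mean over the 8 development libraries. For Klf4 they were Col4a2 (0.15), Mef2c (0.175) and Egflam (0.203), and for Klf2 Gad1 (0.249), Ccdc80 (0.261) and Mrc2 (0.312). For Klf7 they were Ablim3 (0.127), Kif5a (0.135) and Tgfa (0.149), and for Klf9 Ttyh1 (0.0626), Wipi1 (0.0643) and Mroh7 (0.0648). For Klf6 they were Ccnd1 (0.0417), Tppp (0.0653) and Col5a2 (0.0818). Between members the difference was smallest for Klf10 and Klf12 (0.217), was 0.676 for Klf2 and Klf4, and was largest for Klf2 and Klf7 (3.33). These distances describe 8 libraries of 3 ages and carry no test.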

How the data were processed

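RNA-seq counts of 13 libraries were used. According to the labels and the study's methods, the authors checked reads with FastQC 0.11.9, trimmed them with Trimmomatic 0.39 and mapped them to GRCm38 using HISAT2 2.2.1. The deposited values are whole counts per gene from featureCounts (Subread 2.0.3), without normalization. The annotation release and strand setting are not given in the sources used here. Gene IDs without version were matched to symbols of GENCODE M21 for 52403 of 52550 genes.

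The 5 adult and the 8 development libraries were fitted apart in R 4.3.3 with edgeR 4.0.16 (TMM, filterByExpr, glmQLFit and glmQLFTest), and p-values were adjusted by Benjamini-Hochberg over all genes tested, with a threshold of 0.05. The members and gene lists were chosen with earlier results of these data known, and all 10 members are named. Genes of the other lists are named where they passed the test or had a high mean CPM, and some are left out for length or are not reported here. Likeness used log2 CPM (prior count 2) of genes with a mean of at least 3. Exon lengths are the union of GENCODE M21 exons. Counts of replicates differed beyond sampling noise in all pairs. The fits were tried on simulated counts that gave all genes of a dataset the same spread. Such counts cannot judge the fits for genes or libraries that vary more. Alternatives were DESeq2 1.42.0, limma-voom (limma 3.58.1), DESeq2 size factors, no scaling, no filter, a minimum of 10 counts per library, 1 fit of all libraries, a log2 fold change beyond 1, a replicate block and each library left out in turn. Transcript GC content was averaged over the annotated transcripts of a gene, weighted by length, and this comparison was added after the data were seen.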

Additional observations from a re-analysis of the deposited data

How the results depend on the processing

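Of 627 values of the 10 genes under the alternatives, 574 kept their direction and their side of the threshold, 11 reversed, 28 lost and 14 gained a call. At AAV2-Cre against AAV2-GFP, the count of members called was 0, and became 1 with DESeq2, 1 without a low-count filter and 2 with all 13 libraries in 1 fit, all lower in AAV2-Cre. It stayed 0 with each library left out. The calls over all genes in this comparison were 298, against 1296 with DESeq2, 456 with limma-voom, 1512 without a filter, 530 with at least 10 counts in every library, 2504 with all libraries in 1 fit and 5 to 283 with a library left out. The causes were not tested. With a log2 fold change beyond 1 required, the count at P21 against P14 fell to 3, since Klf9 (0.80) and Klf13 (0.90) lie under that limit by construction. All libraries in 1 fit gave 2624 calls over all genes at P21 against P14, against 7071.

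With a library left out, the members called numbered 6 to 7 at P14 against P1, 4 to 6 at P21 against P14 and 5 to 7 at P21 against P1. The reversed values were all at P14 against P1 and none had been called. Klf5 became 0.077 with limma-voom, 0.10 without scaling, 0.10 with the replicate block and 0.000219 with all libraries in 1 fit, and ran from -0.30 to 0.20 over the 6 fits with a library left out that tested it. Klf10 became 0.053 without scaling. Klf12 became 0.10 without scaling and 0.007219 with all libraries in 1 fit, and ran from -0.10 to 0.10 with a library left out. Without scaling the median of all genes at P14 against P1 moved to 0.113.

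The replicate numbers do not pair the libraries (correlations of same-numbered deviations from -0.0512 to 0.0217). With the replicate block, Klf9 at P21 against P14 (0.60, adjusted p = 0.102) and Klf10 at P21 against P1 (adjusted p = 0.0691) lost their calls, Klf2 at P21 against P1 gained one (adjusted p = 0.0293, edgeR, Benjamini-Hochberg), and the calls over all genes became 255, 13411, 5255 and 13112 for AAV2-Cre against AAV2-GFP, P14 against P1, P21 against P14 and P21 against P1. Depth limits Klf5, Klf2, Klf4 and Klf13 in the adult libraries most, where counts were as low as 0, 39, 52 and 78.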
